A study of Saccharomyces cerevisiae with 8 samples.

Results

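Stable unannotated transcripts (SUTs) are non-coding RNAs of budding yeast, and here they were followed through capped RNA left by an exonuclease, in cells with and without UPF1 and with and without cycloheximide (CHX). The SUTs were the rows of the deposited density table whose identifier begins with SUT, 835 of its 11844 features. Of them, 705 had a mean of at least 0.002 over the 8 libraries in the deposited unit and were tested among 10392 features. Values below are in scaled reads per kb, which is 1000 times the density as deposited, so that this minimum reads as 2 scaled reads per kb.

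SUTs are made by RNA polymerase II, often from the nucleosome-free region of a neighbouring gene's promoter or antisense to a gene. They were defined as transcripts visible in wild-type cells, in contrast to cryptic unstable transcripts (CUTs), which the nuclear exosome removes. Many SUTs are capped, polyadenylated and exported, and their decay is thought to run largely through decapping by Dcp2 and 5′ to 3′ digestion by the exonuclease Xrn1. Upf1 is the RNA helicase at the centre of nonsense-mediated decay, the pathway that removes RNAs on which ribosomes stop too early. CHX stops elongating ribosomes, and with them decay that depends on translation.

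The mutant cells carried upf1*::kanMX4 in BY4741 (MATa his3Δ1 leu2Δ0 met15Δ0 ura3Δ0), and the wild type (WT) was BY4741 with the same 4 auxotrophic alleles. BY4741 is a laboratory strain of the S288C background. The groups were upf1 CHX, upf1 DMSO, WT CHX and WT DMSO, each with 2 libraries that the design text calls biological replicates. CHX was given at 100 µg/ml for 15 min and DMSO, its solvent, at an equal volume, to cells growing in YPD at 30 °C at an OD600 of 0.5. All 8 RNA preparations were digested with Terminator, an exonuclease that digests RNA from a 5′ monophosphate end and leaves RNA with a cap intact. Undigested libraries were not analysed here, so more of an RNA and a larger capped share of it cannot be told apart, nor can fewer cells and less RNA per cell.

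NAM7 (YMR080C), the gene that encodes Upf1, had 13.5 and 10.1 scaled reads per kb in upf1 CHX, 5.94 and 2.80 in upf1 DMSO, 83.5 and 44.8 in WT CHX, and 14.8 and 15.2 in WT DMSO. Both upf1 libraries stood below both WT libraries under each treatment, and NAM7 was not at 0 in upf1. The libraries held 1310995 to 5689075 reads in the listed features. Every change given here depends on the factor by which the authors scaled each library. Setting the libraries to a common protein-coding median instead shifted the log2 ratios of the factors by -1.49 for CHX in upf1, by -1.50 for CHX in WT, by -0.73 for upf1 in CHX and by -0.74 for upf1 in DMSO. With a common total the factors shifted by -0.29, -0.32, 0.08 and 0.05 in the same order. Fitted changes carry a pseudocount and moved by other amounts. The median change of the tested SUTs for CHX in WT was 0.98 with a common protein-coding median and 1.54 with a common total, against 1.75 as reported, and for CHX in upf1 it was -0.06 and 0.90 against 1.13.

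SUTs were a small part of each library. They took 0.611% and 0.635% of reads in upf1 CHX, 0.373% and 0.330% in upf1 DMSO, 0.441% and 0.386% in WT CHX, and 0.120% and 0.103% in WT DMSO. WT DMSO was lowest and upf1 CHX highest, with no overlap between either of them and another group. In reads this was 10942 and 36121 SUT reads in upf1 CHX, 11015 and 7160 in upf1 DMSO, 11830 and 18077 in WT CHX, and 2870 and 1352 in WT DMSO.

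Detection of single SUTs followed from this depth. A read was recovered for 744 and 810 of the 835 SUTs in upf1 CHX, 721 and 672 in upf1 DMSO, 769 and 780 in WT CHX, and 557 and 412 in WT DMSO. The median SUT had 6 and 20 reads in upf1 CHX, 6 and 4 in upf1 DMSO, 6 and 9 in WT CHX, and 2 and 0 in WT DMSO. The WT DMSO libraries are therefore where single SUTs are measured least well. Among the 705 tested SUTs, 589 had under 10 reads and 134 had none over the WT DMSO libraries, while 0 had none in upf1 CHX, 26 in upf1 DMSO and 3 in WT CHX. The log values of replicate libraries correlated across the 705 SUTs with r = 0.840 in upf1 CHX, 0.837 in upf1 DMSO, 0.861 in WT CHX and 0.704 in WT DMSO, as a description over transcripts that are not independent.

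The SUTs had recovered lengths of 41 to 4281 nt with a median of 761 nt, for the 828 with at least 1 read. Mean densities over the 8 libraries had a median of 8.08 scaled reads per kb over all 835 SUTs, 9.91 over the 705 tested and 362 at most. The median protein-coding gene stood at 19.2 scaled reads per kb and the median CUT at 7.0, so the median SUT lay between them, nearer to the CUTs. Just above the minimum stood SUT436, SUT188 and SUT584, with means of 2.00, 2.02 and 2.04 scaled reads per kb. Just below it stood SUT161, SUT826 and SUT246, with 1.98, 1.97 and 1.96. Of the 130 SUTs under the minimum, 123 had a read in some library, 103 had none in WT DMSO, and their median total over the 8 libraries was 6 reads.

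The summed density of all 835 SUTs was 21.5 and 20.9 scaled reads per nt in upf1 CHX, 9.79 and 7.63 in upf1 DMSO, 16.7 and 13.8 in WT CHX, and 3.79 and 3.17 in WT DMSO. The groups fell into one order without overlap, WT DMSO, upf1 DMSO, WT CHX and upf1 CHX from low to high. The sum was 2.44-fold higher on CHX in upf1 and 4.38-fold higher on CHX in WT. It was 1.39-fold higher in upf1 than in WT under CHX and 2.50-fold higher under DMSO. With 2 libraries a group, a permutation test of such a sum cannot go below p = 0.333, so these folds carry no test of their own.

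**Figure D1:**
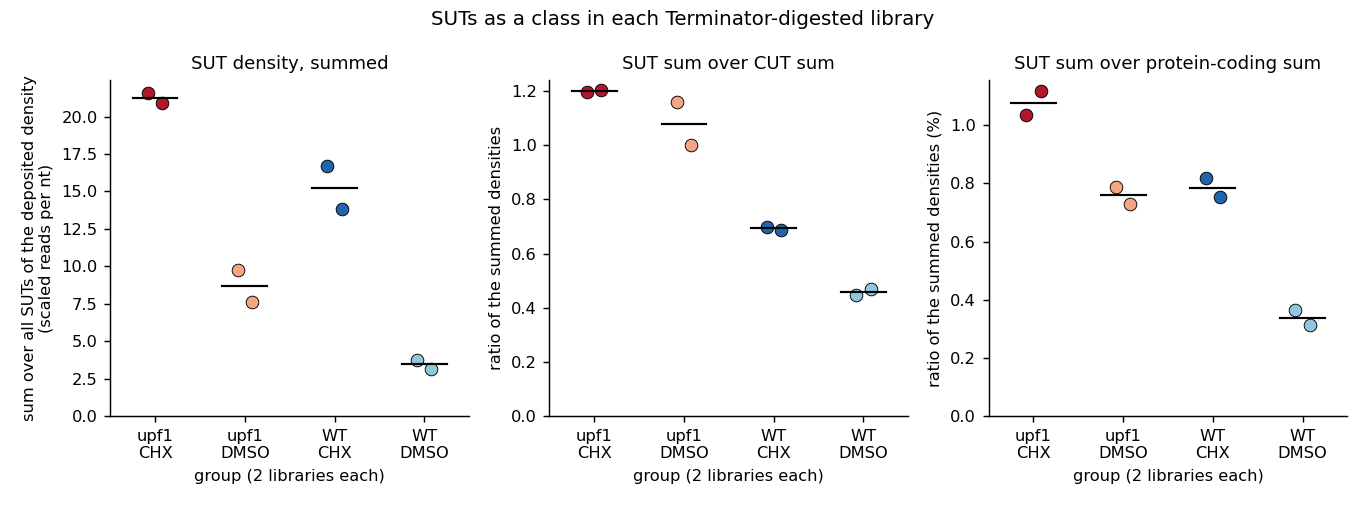
SUT density summed over 835 rows (left), its ratio to the summed CUT density (middle) and to the summed protein-coding density in percent (right), by group, with 1 point a library and a bar at the mean of 2. WT DMSO is lowest in every panel, and in the middle panel the 4 upf1 libraries (0.999 to 1.2) lie above the 4 WT libraries (0.447 to 0.699).

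The order of the sums was also the most frequent order of single SUTs. Group means ran WT DMSO, upf1 DMSO, WT CHX, upf1 CHX from low to high in 401 of the 705 tested SUTs, or 56.9%, and in 55.8% of all features tested. upf1 CHX was the highest group for 547 SUTs (77.6%, against 73.7% of all features), and WT DMSO the lowest for 637 (90.4%, against 82.3%). The order WT DMSO, WT CHX, upf1 DMSO, upf1 CHX was found for 99 SUTs (14.0%), against 8.47% of all features. The most frequent order of the SUTs was thus about as frequent among all features on these library factors.

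The most abundant SUTs differed in how far they followed it. SUT388, a 513-nt row between the rows of MSC6 and GDS1 on chromosome XV, had 428 and 534 scaled reads per kb in upf1 CHX, 211 and 141 in upf1 DMSO, 716 and 474 in WT CHX, and 226 and 169 in WT DMSO. CHX libraries stood above DMSO libraries in both genotypes, and upf1 and WT libraries overlapped under both treatments. Its CHX change was 1.46 ± 0.30 (log2, SE) in upf1 and 1.57 ± 0.30 in WT (limma adjusted p = 0.00684 and 0.0032), and its change in upf1 against WT under DMSO was -0.18 ± 0.30 (limma adjusted p = 0.713). Log2 changes and SEs here and below are taken after adding 2 scaled reads per kb to each value, which understates changes of low rows, and rest on 2 libraries a group.

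SUT298 passed the test in no comparison. This row of 73 nt is followed in the table by snR78, a small nucleolar RNA that guides methylation of ribosomal RNA. SUT298 had 552 and 334 scaled reads per kb in upf1 CHX, 310 and 248 in upf1 DMSO, 397 and 217 in WT CHX, and 333 and 273 in WT DMSO. The groups overlapped in all but 1 comparison, CHX in upf1, and that comparison did not pass the test either. The snR78 row itself averaged 292 scaled reads per kb over the 8 libraries, near the 333 of SUT298, and how reads of such adjoining rows were assigned is not given in the sources used here.

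SUT103 and SUT406 were among the abundant SUTs that were higher in upf1 than in WT under DMSO. SUT103, a 1193-nt row between EPL1, a subunit of the NuA4 histone acetyltransferase, and BUD27 on chromosome VI, had 238 and 259 scaled reads per kb in upf1 CHX, 195 and 150 in upf1 DMSO, 103 and 116 in WT CHX, and 37.6 and 41.8 in WT DMSO. Both upf1 groups stood above both WT groups. The change in upf1 under DMSO was 2.05 ± 0.21 (limma adjusted p = 0.00346). The CHX change in WT was 1.42 ± 0.21 (limma adjusted p = 0.00143), and -0.037 with a common protein-coding median. The row before it, XUT0311, had a mean of 126 scaled reads per kb against 143 for SUT103. XUTs are transcripts defined by their rise without Xrn1, and the XUT and SUT catalogues overlap. XUT0311 had 209 and 229 scaled reads per kb in upf1 CHX, 171 and 132 in upf1 DMSO, 90.8 and 102 in WT CHX, and 33.1 and 36.8 in WT DMSO. It lay somewhat below SUT103 in each library and ranked the libraries alike. Whether these 2 rows count the same reads was not tested.

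SUT406, of 1825 nt and beside RLM1, which encodes a transcription factor of the cell wall integrity pathway, had 239 and 200 scaled reads per kb in upf1 CHX, 88.5 and 52.2 in upf1 DMSO, 154 and 159 in WT CHX, and 12.8 and 5.47 in WT DMSO. All 4 groups were apart. In WT the CHX libraries stood 15.5-fold above DMSO (exact 95% interval of the read ratio 10.8 to 23.0, counting error only), and upf1 stood 7.07-fold above WT under DMSO (4.88 to 10.6).

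The remaining SUTs of highest mean were SUT477, SUT143, SUT307, SUT355, SUT217 and SUT800. Each of them rose on CHX in WT, by 1.14 (SUT217, between SOD1 and ADO1) to 3.44 (SUT307) on the log2 scale, with limma adjusted p of 0.00241 or lower. The WT calls of SUT477, SUT143 and SUT217, like those of SUT388 and SUT103, ended with a common protein-coding median, quantile normalization or log centring, and SUT217 turned to -0.34 with the first of these. In upf1 against WT under DMSO, SUT477 and SUT307 rose by 1.29 and 2.22, and both calls ended without any 1 of several libraries, for SUT477 without any of 7 of the 8.

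**Figure D2:**
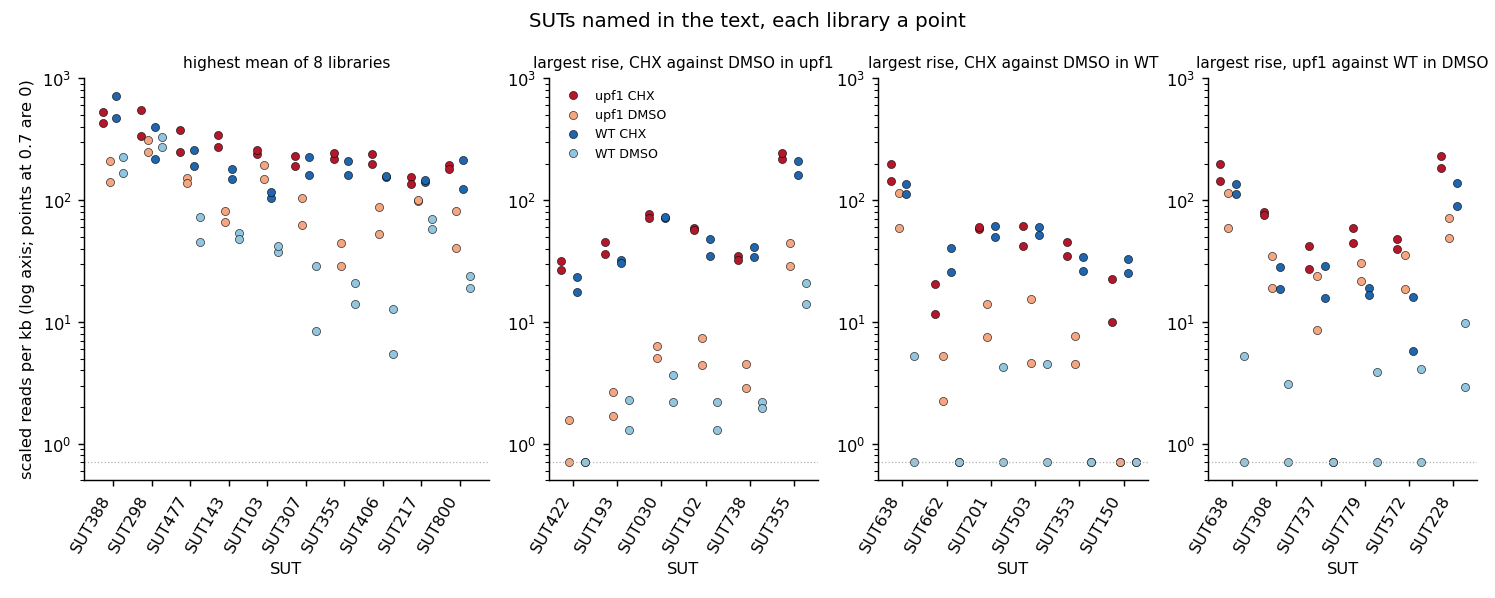
Scaled reads per kb in each library (log axis, values of 0 drawn at 0.7) for the 10 SUTs of highest mean and the 6 with the largest rise in each of 3 comparisons, with upf1 CHX, upf1 DMSO, WT CHX and WT DMSO from left to right for each SUT. SUT298 has libraries from 217 to 552, SUT103 separates by genotype, and SUT422 and SUT193 separate by CHX with both DMSO groups at 2.63 or less.

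CHX in wild-type cells raised most SUTs. Of the 705 tested, 548 (77.7%) were higher in WT CHX than in WT DMSO and 0 were lower by limma with Benjamini-Hochberg adjustment over all features, where 69.8% of all features tested were higher and 0.106% lower. At an unadjusted p under 0.05, 572 were higher and 0 lower, against 7674 and 16 of the 10392 features tested. Voom on recovered reads gave 507 higher (69% of all features) and 0 lower. The median change was 1.75 on the log2 scale, against 1.42 over all features tested, 1.80 over XUTs, 1.78 over CUTs and 1.23 over protein-coding genes. The SUT median was thus close to those of the other non-coding classes. Both WT CHX libraries lay above both WT DMSO libraries for 637 SUTs (90.4%, against 85.5% of all features) and below them for 3. Relative to the shift between libraries, fewer SUTs stood out: a common protein-coding median left 172 higher and 3 lower, quantile normalization 63 higher and 14 lower.

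The largest rise was that of SUT638, a 177-nt row between TDH2, which encodes an isozyme of glyceraldehyde-3-phosphate dehydrogenase, and MET3, the ATP sulfurylase gene, on chromosome X. It had 145 and 199 scaled reads per kb in upf1 CHX, 114 and 59.2 in upf1 DMSO, 137 and 112 in WT CHX, and 5.28 and 0 in WT DMSO. The WT DMSO values stand for 1 read and 0 reads, against 20 and 30 reads in WT CHX. The read ratio of WT CHX to WT DMSO was 35.6 with an exact 95% interval of 6.11 to 1436, and the log2 change 5.04 ± 0.59 (limma adjusted p = 0.000704).

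SUT662, SUT353 and SUT150 had no read in WT DMSO. SUT662, 361 nt, lies beside SDH3, a subunit gene of succinate dehydrogenase, and had 40.2 and 25.6 scaled reads per kb in WT CHX and 0 and 0 in WT DMSO. SUT353, 425 nt, lies between ZPS1 and FRE7 and had 34.1 and 26.4 in WT CHX and 0 and 0 in WT DMSO. SUT150, 369 nt, lies between STE20, a kinase gene of the mating pathway, and SHU1, and had 32.8 and 25 in WT CHX and 0 and 0 in WT DMSO. Set against 3 reads over the WT DMSO group, these were at least 6.18-fold, 6.89-fold and 5.70-fold higher in WT CHX, and each passed the test with a limma adjusted p of 0.000517 or lower.

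The same calculation covered all tested SUTs without a WT DMSO read. At 0 there, they reached the minimum mean only through the other groups, so these differences could only be rises. The calculation was not made over all features. Of the 134, 110 had more than 3 reads in WT CHX, 52 were at least 2-fold higher and 12 at least 5-fold, and the highest bound was 7.60-fold for SUT184, a 2081-nt row between the meiotic genes SPO22 and HOP1. Over all 705 SUTs, the exact 95% interval of the read ratio lay above 1 for 479 and below 1 for 0, and the share over all features was not computed.

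The SUTs of smallest adjusted p were better covered. SUT030, 761 nt and beside YCR006C on chromosome III, had 77.0 and 71.0 scaled reads per kb in upf1 CHX, 6.37 and 5.01 in upf1 DMSO, 71.5 and 72.8 in WT CHX, and 3.69 and 2.19 in WT DMSO. CHX libraries lay above DMSO libraries in both genotypes, the CHX groups overlapped each other, and upf1 DMSO lay above WT DMSO. The change was 3.31 ± 0.27 in upf1 and 3.93 ± 0.27 in WT (limma adjusted p = 0.00105 and 0.000299), and 0.03 ± 0.27 in upf1 against WT under CHX (limma adjusted p = 0.944). SUT328, beside the cell wall gene YGP1, rose by 3.11 ± 0.24 in WT, SUT149 by 3.45 ± 0.30, and SUT738, beside the glutamate decarboxylase gene GAD1, by 3.28 ± 0.28 (limma adjusted p = 0.000377, 0.000418 and 0.000418).

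CHX calls in WT were followed for the SUTs of highest mean, of top rank in this comparison and of published work. This set of 23 includes SUT201 and SUT503, not described in the text, and leaves out SUT193 and SUT102. Of the 23 calls, 22 held without any 1 of the 8 libraries, and 15 held under all other settings tried. The exception was SUT125, which sat at the threshold with a limma adjusted p of 0.05. Many of these SUTs were picked for a large change or a small adjusted p in this same comparison, which favours calls that hold.

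On the authors' library factors SUTs were also higher on CHX in cells without UPF1, in a smaller share than all features. In upf1, 388 of 705 (55.0%) were higher on CHX than on DMSO and 0 lower by limma, where 64.1% of all features tested were higher and 0.154% lower. The unadjusted counts were 437 higher and 0 lower, against 7279 and 22 of the 10392 features tested, and those of voom 424 (70.6% of all features) and 0. The median change was 1.13 on the log2 scale, against 1.22 over all features. Both upf1 CHX libraries lay above both upf1 DMSO libraries for 599 SUTs (85.0%, against 86.7% of all features). The count fell to 149 when upf1 DMSO replicate 2 was left out, to 99 for upf1 CHX replicate 1 and to 201 for upf1 CHX replicate 2. A common protein-coding median left 7 higher and 3 lower, quantile normalization 7 and 2. The median SUT change was then -0.06 and -0.13 on the log2 scale.

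SUT422 and SUT193 had the largest rises on CHX in upf1. SUT422, 521 nt and between ASA1 and SUA7, the gene of the general transcription factor TFIIB, had 31.6 and 26.9 scaled reads per kb in upf1 CHX, 1.55 and 0 in upf1 DMSO, 23.2 and 17.7 in WT CHX, and 0 and 0 in WT DMSO. SUT193, 1449 nt and before FLO11 in the row order, a flocculin gene of the cell surface, had 45.5 and 36.2 in upf1 CHX, 1.67 and 2.63 in upf1 DMSO, 32.5 and 30.5 in WT CHX, and 1.29 and 2.30 in WT DMSO. Both were near the floor in both DMSO groups and high in both CHX groups. For SUT193 the change was 3.37 ± 0.30 in upf1 and 3.16 ± 0.30 in WT (limma adjusted p = 0.00107 and 0.000444), and the read ratio of upf1 CHX to upf1 DMSO was 18.1 (exact 95% interval 8.55 to 45.9).

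SUT102, SUT738 and SUT355 were also higher on CHX in both genotypes. SUT102, 1281 nt and between the kinase gene CAK1 and CAF16, had 58.6 and 57.1 scaled reads per kb in upf1 CHX, 4.41 and 7.44 in upf1 DMSO, 48.1 and 35 in WT CHX, and 2.19 and 1.30 in WT DMSO. SUT355, 401 nt, had 219 and 246 in upf1 CHX, 44.3 and 28.5 in upf1 DMSO, 211 and 161 in WT CHX, and 14.0 and 20.7 in WT DMSO. The CHX changes of SUT102, SUT738 and SUT355 in upf1 were 2.94, 2.66 and 2.64 on the log2 scale with limma adjusted p of 0.00184 or lower. With a common protein-coding median or log centring the calls of SUT102 and SUT738 ended (adjusted p of up to 0.0804 and 0.0809).

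The CHX comparisons in upf1 and in WT share no library, but 1 fit pooled the spread of all 8 libraries for both. Their lists are therefore not independent. In both, 358 SUTs were higher, which was 92.3% of the upf1 list and 65.3% of the WT list, and 127 SUTs passed in neither. Over all features the shares were 84.6% of the upf1 list and 77.7% of the WT list. Whether a SUT called in 1 genotype differs between genotypes is the question of the interaction below.

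**Figure D3:**
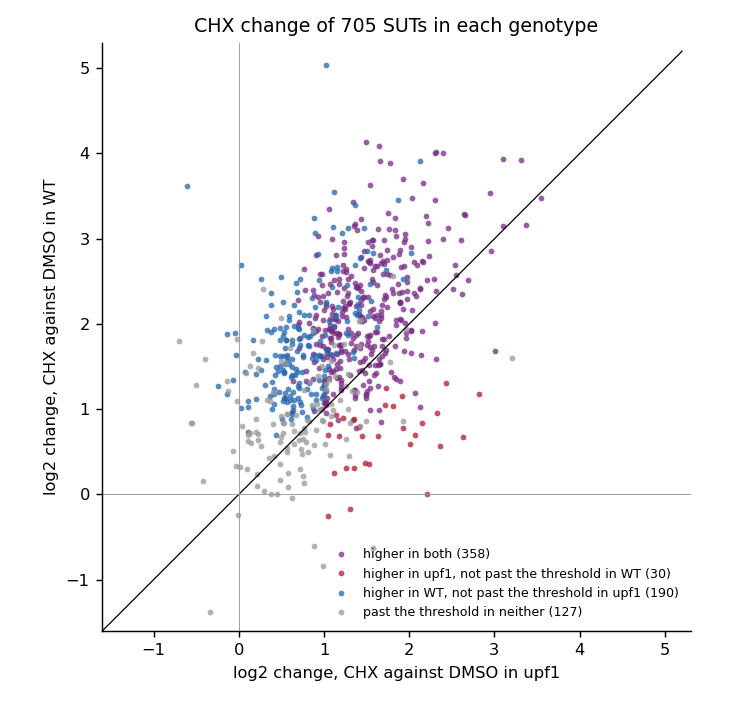
Log2 change on CHX in upf1 (horizontal) and in WT (vertical) for the 705 tested SUTs, coloured by the genotype in which limma's adjusted p was under 0.05, with the line of equal change. Most points lie above the line, with medians of 1.13 in upf1 and 1.75 in WT, and 358 SUTs passed in both.

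Loss of UPF1 under DMSO raised about 1 SUT of every 3 tested. In upf1 DMSO, 233 of 705 SUTs (33.0%) were higher than in WT DMSO and 0 lower by limma, where 14.7% of all features tested were higher and 0.395% lower. The unadjusted counts were 359 higher and 3 lower, against 3132 and 118 of the 10392 features tested, and those of voom 200 (14% of all features) and 0. The median change was 1.03 on the log2 scale, against 0.54 over all features tested, 0.88 over XUTs, 0.51 over protein-coding genes and 0.37 over CUTs. Both upf1 DMSO libraries lay above both WT DMSO libraries for 487 SUTs (69.1%, against 52.7% of all features) and below them for 13. The 134 tested SUTs without a WT DMSO read could not come out lower in this comparison. The count fell to 44 when upf1 DMSO replicate 1 was left out and to 129 when WT DMSO replicate 2 was. Leaving out upf1 CHX replicate 1 gave 128, and leaving out the other upf1 CHX library 130. With the 4 DMSO libraries fitted alone it was 0. A common protein-coding median gave 125 higher and 4 lower, quantile normalization 58 and 4, and log centring 61 and 2.

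The 6 SUTs of smallest adjusted p, SUT509, SUT560, SUT667, SUT674, SUT768 and SUT221, were alike in having WT DMSO lowest and upf1 CHX highest. SUT509, 1137 nt and between FAA2, a fatty acyl-CoA synthetase gene, and BIM1 on chromosome V, had 195 and 196 scaled reads per kb in upf1 CHX, 104 and 82.1 in upf1 DMSO, 93.5 and 71.4 in WT CHX, and 14.8 and 11.7 in WT DMSO. WT DMSO stood below everything else, and upf1 DMSO overlapped WT CHX. Its change in upf1 under DMSO was 2.64 ± 0.24 (limma adjusted p = 0.00275), and the read ratio was 6.85 (exact 95% interval 4.57 to 10.7). The row before it, XUT1134, averaged 82.3 scaled reads per kb against 96.1 for SUT509, and whether the rows count the same reads was not tested.

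SUT560, 921 nt and between PHB1, which encodes a prohibitin of the inner mitochondrial membrane, and PEX4, had 107 and 94.7 scaled reads per kb in upf1 CHX, 61.4 and 54.8 in upf1 DMSO, 56.4 and 50.8 in WT CHX, and 8.12 and 9.03 in WT DMSO. SUT768, 1313 nt and between the arginine biosynthesis gene ARG1 and YOL057W, had 94.8 and 102 in upf1 CHX, 54.8 and 47.2 in upf1 DMSO, 71.8 and 77.9 in WT CHX, and 8.54 and 6.33 in WT DMSO. In both, WT DMSO was the low group and the other 3 groups stood at 47.2 scaled reads per kb or more. The changes in upf1 under DMSO were 2.51 ± 0.22 for SUT560 and 2.49 ± 0.23 for SUT768, both with a limma adjusted p of 0.00275.

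SUT667, SUT674 and SUT221 are neighbours of MIF2, SFK1 and MNN4 on chromosome XI, in that order. Their changes in upf1 under DMSO were 2.50, 2.85 and 2.65 on the log2 scale (limma adjusted p = 0.00275, 0.00275 and 0.00318). SUT674 had 91.0 and 85.4 scaled reads per kb in upf1 CHX, 41.8 and 38.7 in upf1 DMSO, 47.8 and 41.5 in WT CHX, and 2.85 and 5.07 in WT DMSO. The calls on these 6 SUTs held without any 1 of the 8 libraries, with a limma adjusted p of 0.0319 at most. They ended with the 4 DMSO libraries fitted alone (0.051 to 0.0549). These SUTs were picked for a small adjusted p in this same comparison, which favours calls that hold.

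The largest rises in upf1 under DMSO were those of SUT638, SUT308, SUT737, SUT779, SUT572 and SUT228, and they rested on fewer reads in WT DMSO. SUT228, 1137 nt and between PIR1 and PIR3, genes of covalently bound cell wall proteins, was the best covered, with 230 and 184 scaled reads per kb in upf1 CHX, 71.1 and 48.6 in upf1 DMSO, 138 and 89.3 in WT CHX, and 9.87 and 2.93 in WT DMSO. All 4 groups were apart. Its change under DMSO was 2.99 ± 0.44 (limma adjusted p = 0.00794), and the call ended without upf1 DMSO replicate 1 (adjusted p = 0.0605).

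SUT737, 673 nt and between RRP5 and RPS10B, a ribosomal protein gene, had 24.0 and 8.49 scaled reads per kb in upf1 DMSO and 0 and 0 in WT DMSO, at least 6.33-fold higher. SUT308, beside SAS2, the gene of a histone acetyltransferase, had 34.9 and 19.0 in upf1 DMSO and 3.11 and 0 in WT DMSO. SUT779, beside LEU9 of leucine biosynthesis, had 30.3 and 21.8 in upf1 DMSO and 3.89 and 0 in WT DMSO. The upf1 and WT libraries did not overlap for these 3 SUTs, and each call ended without upf1 DMSO replicate 1, as it did for SUT572 without any of 4 libraries. The highest bound for a SUT without WT DMSO reads was 6.82-fold, for SUT581, which had 14.4 and 5.67 scaled reads per kb in upf1 DMSO. At 0 in WT DMSO, SUT737 and SUT581 reached the minimum mean only through other groups, so these differences could only be rises.

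Some SUTs that rose on CHX did not pass the test here. SUT030, SUT193 and SUT738, all higher on CHX in both genotypes, had changes of 0.65 ± 0.27, 0.13 ± 0.30 and 0.46 ± 0.28 in upf1 against WT under DMSO (limma adjusted p = 0.143, 0.791 and 0.302). SUT150 had 0 and 0 scaled reads per kb in upf1 DMSO and 0 and 0 in WT DMSO, against 9.92 and 22.5 in upf1 CHX and 32.8 and 25 in WT CHX. No read of SUT150 was counted in any of the 4 DMSO libraries.

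**Figure D4:**
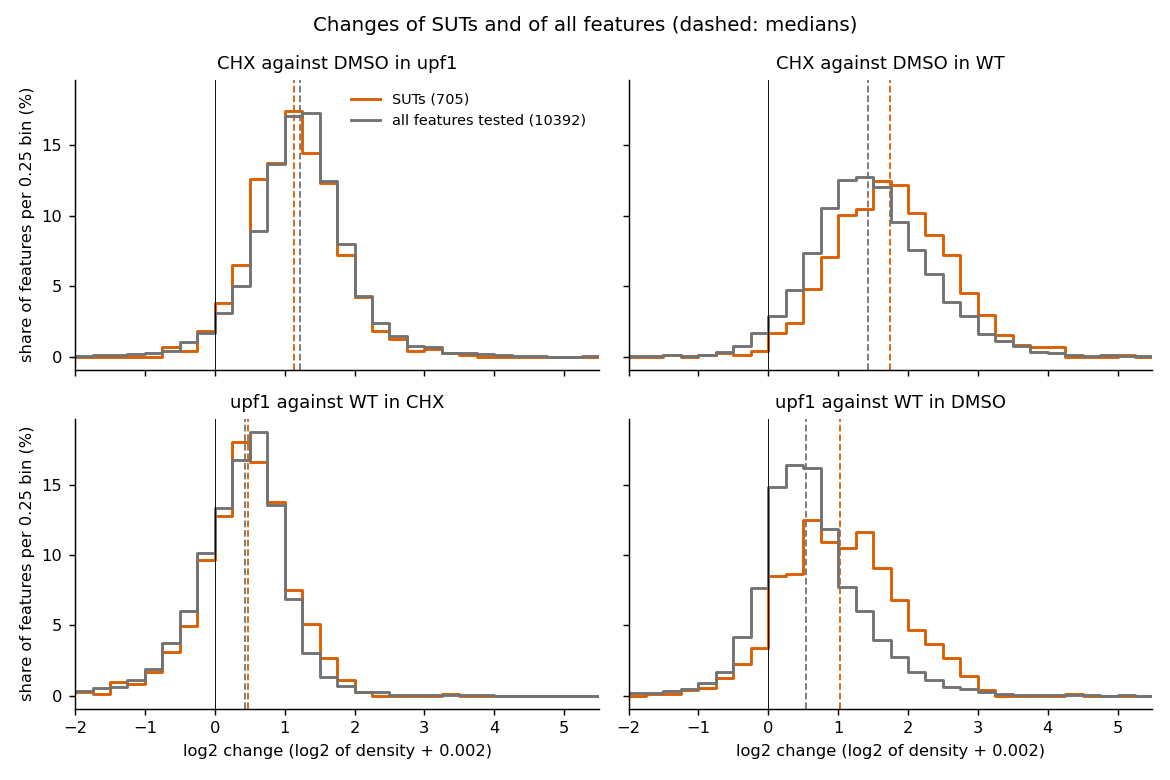
Share of features per 0.25 bin of log2 change for the 705 tested SUTs and for the 10392 features tested, in 4 comparisons, with dashed lines at the medians. The SUT curve lies to the right of all features for upf1 against WT in DMSO (medians 1.03 and 0.54) and for CHX in WT (1.75 and 1.42), and near it for CHX in upf1 (1.13 and 1.22) and for upf1 against WT in CHX (0.47 and 0.43). XUTs and CUTs alone, not drawn, had medians of 1.80 and 1.78 for CHX in WT.

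Under CHX, no SUT passed the test between upf1 and WT. By limma 0 of 705 were higher and 0 lower, where 0.0481% of all features tested were higher and 0.0385% lower, and the smallest adjusted p of a SUT was 0.113. The unadjusted counts were 150 higher and 9 lower, against 2192 and 265 of the 10392 features tested, so the share higher was about that of all features. By voom on recovered reads 63 SUTs were higher and 0 lower, where 11.6% of all features were higher. The median change was 0.47 on the log2 scale, against 0.43 over all features tested. Both upf1 CHX libraries lay above both WT CHX libraries for 402 SUTs (57.0%, against 51.9% of all features) and below them for 40. SUT103 and SUT509 were among those of smallest adjusted p, with changes of 1.17 ± 0.21 and 1.24 ± 0.24 (limma adjusted p = 0.113 for both).

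The effect of CHX was not shown to differ between the genotypes for any single SUT. The interaction, the CHX change in upf1 minus that in WT, passed limma's threshold for 0 SUTs higher and 0 lower, as for 0% of all features, and voom gave 0 and 0. At an unadjusted p under 0.05, 4 SUTs were above 0 and 120 below, against 139 and 805 over all features tested. The median interaction was -0.61 on the log2 scale over SUTs, -0.57 over XUTs, -0.54 over CUTs, -0.01 over protein-coding genes and -0.18 over all features tested. SUT768 had the smallest adjusted p, with an interaction of -2.11 ± 0.33 (limma adjusted p = 0.143), and SUT638 one of -4.01 ± 0.83 (limma adjusted p = 0.222).

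Ratios within a library do not depend on the library factor. The SUT sum relative to the CUT sum was 1.19 and 1.2 in upf1 CHX, 1.16 and 0.999 in upf1 DMSO, 0.699 and 0.687 in WT CHX, and 0.447 and 0.469 in WT DMSO. All 4 upf1 libraries lay above all 4 WT libraries, 2.02-fold on average, and CHX and DMSO libraries overlapped. An exact two-sided permutation test of upf1 against WT gave p = 0.0286, the smallest that 4 against 4 allows, and 0.114 after Benjamini-Hochberg adjustment over 4 such tests, so the difference does not pass the correction. With medians of the class in place of sums the log2 difference was 0.38, against 1.01 with sums, and the exact permutation p was 0.143. CHX against DMSO gave a log2 difference of 0.38 with sums (exact permutation p = 0.343).

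The CUTs, the other side of this ratio, did not show the genotype order of the SUTs. The CUT sum was 18 and 17.4 scaled reads per nt in upf1 CHX, 8.45 and 7.64 in upf1 DMSO, 23.9 and 20.1 in WT CHX, and 8.47 and 6.75 in WT DMSO. CUT sums of upf1 and WT overlapped under DMSO, and upf1 stood below WT under CHX. Within DMSO the SUT to CUT ratio was 2.35-fold higher in upf1, and within CHX 1.73-fold, with no overlap in either.

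SUTs relative to protein-coding genes gave another order. The SUT sum was 1.04% and 1.12% of the protein-coding sum in upf1 CHX, 0.787% and 0.731% in upf1 DMSO, 0.819% and 0.752% in WT CHX, and 0.365% and 0.313% in WT DMSO. upf1 DMSO and WT CHX overlapped, while WT DMSO stood lowest and upf1 CHX highest. Exact two-sided permutation tests gave p = 0.143 for upf1 against WT and 0.0571 for CHX against DMSO (adjusted 0.190 and 0.114), in which the other factor adds to the spread of each arm. Relative to XUTs, the SUT sum varied less: 0.687 and 0.685 in upf1 CHX, 0.697 and 0.677 in upf1 DMSO, 0.658 and 0.625 in WT CHX, and 0.759 and 0.738 in WT DMSO. Here WT DMSO stood highest, above every other library. The XUT and SUT catalogues overlap, and the part of rows that count the same reads in this ratio was not tested.

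The size of the genotype change went with SUT length under DMSO and under CHX, while that of the CHX changes stayed level. The 705 tested SUTs were split into 3 classes of 235 by recovered length, up to 521 nt, 521 to 1105 nt and 1105 to 4209 nt. For upf1 against WT under DMSO the median log2 change was 0.68 in the shortest class, 1.15 in the middle and 1.21 in the longest, with 17.0%, 36.2% and 46.0% called higher, against 14.7% of all features tested. For CHX in WT the medians were 1.74, 1.81 and 1.73, with 62.1%, 85.1% and 86.0% called, against 69.8% of all features tested. For CHX in upf1 the medians were 1.17, 1.11 and 1.12. For upf1 against WT under CHX they were 0.28, 0.46 and 0.59, with 0% called higher in each class, against 0.0481% of all features tested. Shorter SUTs also carried fewer reads, a median of 24 over the 8 libraries against 79 and 150 in the other classes, and the part of depth in the length pattern was not tested. Across the 705 SUTs the genotype change under DMSO correlated with log length with Pearson's r of 0.224 and Spearman's rho of 0.223. Under CHX the genotype change had r of 0.243 and rho of 0.241. The CHX change in WT had r of -0.003 and rho of -0.012. These are descriptions over rows that share their libraries.

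By level, the CHX change in WT also differed between classes. In classes of 235 by mean over the 8 libraries, up to 6.29, 6.33 to 15.6 and 15.6 to 362 scaled reads per kb, the median CHX change in WT was 1.30, 1.84 and 2.2 and the change in upf1 under DMSO 0.67, 1.15 and 1.44. In upf1 the CHX medians were 0.99, 1.21 and 1.2. The pseudocount pulls changes of low rows towards 0, and the classes held medians of 25, 68 and 202 reads. The mean that forms the classes also includes the libraries compared, so SUTs with high CHX values sort into higher classes. The part of scale, depth and this sorting in the pattern was not tested. The median interaction was -0.30, -0.61 and -0.97 in the same classes.

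**Figure D5:**
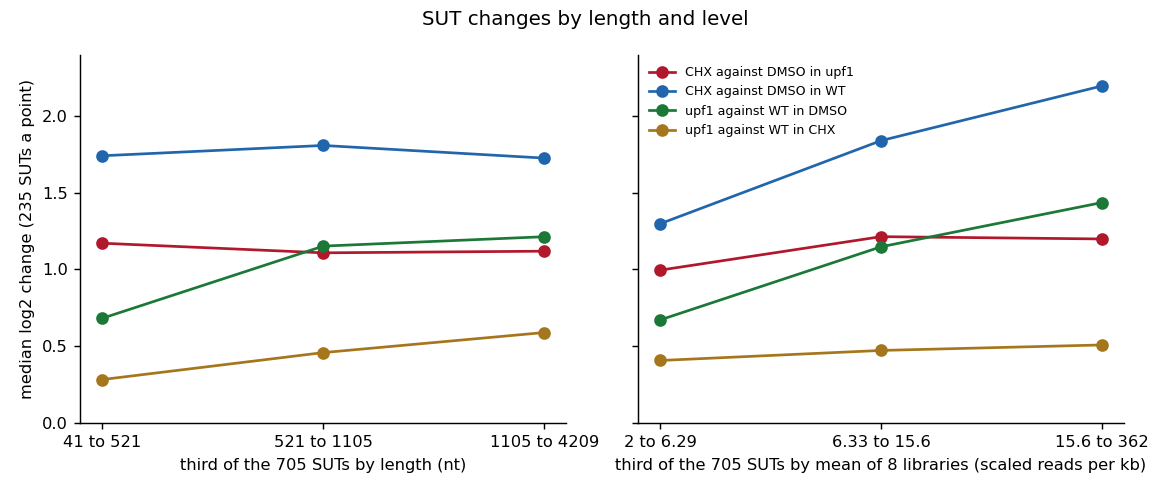
Median log2 change of the 705 tested SUTs in 3 classes of recovered length (left) and 3 of mean level (right), 235 SUTs a point, for 4 comparisons. By length, the genotype change goes through 0.68, 1.15 and 1.21 under DMSO and through 0.28, 0.46 and 0.59 under CHX. The CHX changes stay level by length, and by level the CHX change in WT goes through 1.30, 1.84 and 2.2. The level classes are formed from a mean that includes the libraries compared.

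Published functional work on single SUTs gave 7 names. SUT719 is known as an antisense transcript of SUR7, a gene of the eisosomes of the plasma membrane, and its 1593-nt row stands before that of SUR7. It had 6.89 and 9.13 scaled reads per kb in upf1 CHX, 2.03 and 4.79 in upf1 DMSO, 3.03 and 9.94 in WT CHX, and 2.35 and 0 in WT DMSO. CHX libraries lay above DMSO libraries in both genotypes, and no comparison passed limma's threshold (CHX in WT 1.39 ± 0.56, adjusted p = 0.0553). SUT457, a 345-nt row between SYP1 and the ribosomal protein gene RPS14A that has been linked to telomere maintenance, had 138 and 172 scaled reads per kb in upf1 CHX, 82.0 and 35.9 in upf1 DMSO, 130 and 87.9 in WT CHX, and 16.3 and 24.1 in WT DMSO. Its CHX changes were 1.47 ± 0.41 in upf1 and 2.32 ± 0.41 in WT (limma adjusted p = 0.018 and 0.00253), and its change in upf1 under DMSO was 1.37 ± 0.41 (adjusted p = 0.0624). The call in upf1 ended without any of 3 libraries, with an adjusted p of up to 0.0923. Both CHX calls of SUT457 also ended with a common protein-coding median, quantile normalization or log centring, with limma adjusted p of up to 0.994 in upf1 and 0.138 in WT.

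The other 5 names were low. SUT126, beside UTP22, was without a WT DMSO read, so its differences from WT DMSO could only be rises. It was at least 2.85-fold higher in WT CHX and at least 2.43-fold higher in upf1 DMSO (limma adjusted p = 0.00547 and 0.0378). The second call ended without any of 6 libraries. SUT125, between the eisosome gene PIL1 and PDC6, had 12 reads over the 8 libraries and a CHX change of 2.11 ± 0.82 in WT, which 5 of 8 left-out libraries ended. SUT075 and SUT532, with means of 2.83 and 4.93 scaled reads per kb, passed no test. SUT035 had 2 reads in all and was not tested.

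Of the 22 listed factors that act on such transcripts (Upf and decapping factors, 5′ exonucleases, the nuclear exosome with its helper complexes, and the Nrd1 termination complex), 21 were tested. On CHX 12 of the 21 rose in upf1, where 64.1% of all features did, and 8 of the 21 in WT, where 69.8% did, and none of the 21 fell. XRN1, the exonuclease of cytoplasmic 5′ decay, had 57.6 and 58.9 scaled reads per kb in upf1 CHX, 36.3 and 29.8 in upf1 DMSO, 36.7 and 31.9 in WT CHX, and 33.7 and 33.2 in WT DMSO. Only upf1 CHX stood apart, with a CHX change of 0.79 ± 0.22 in upf1 and 0.03 ± 0.22 in WT (limma adjusted p = 0.0191 and 0.909). The difference between these changes, 0.76 ± 0.32, did not pass the test (limma adjusted p = 0.539). Under DMSO, NMD4, EBS1 and DXO1 rose in upf1 by 2.65, 1.61 and 1.53 on the log2 scale, and NAM7 fell by 1.46 (limma adjusted p = 0.00397, 0.0382, 0.011 and 0.0439). DXO1 encodes a decapping exonuclease for incomplete caps, and NMD4 and EBS1 encode partners of the Upf proteins.

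Rows of the table follow the chromosomes, so the genes on either side of a SUT could be read from the order, though strand and exact position could not. For 618 tested SUTs both flanking protein-coding genes were tested. In upf1 against WT under DMSO the SUT median was 1.02 on the log2 scale against 0.54 for the mean of the flanking genes, and 68.8% of these SUTs changed more than their flanks. For CHX in WT the medians were 1.75 and 1.35, with 66.2% above their flanks. For CHX in upf1 they were 1.14 and 1.30, and for upf1 against WT in CHX 0.46 and 0.53. SUT and flank changes were weakly correlated across the 618 (r of 0.122 to 0.184), and these points share libraries.

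By chromosome, the share of tested SUTs higher on CHX in WT ran from 58.3% on chromosome VI (7 of 12) to 100% on chromosome I (7 of 7). For upf1 against WT under DMSO it ran from 18.8% on chromosome XVI (13 of 69) to 45.2% on chromosome IX (14 of 31). Over all features tested, not split by chromosome, the shares were 69.8% and 14.7%. The medians of the change were above 0 on all 16 nuclear chromosomes in both comparisons, at 1.46 to 2.03 for CHX in WT and 0.59 to 1.26 for upf1 under DMSO.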

How the data were processed

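Total RNA of 8 samples was digested with Terminator and sequenced from stranded libraries, per the labels' protocols, at 1 unit of enzyme for 1.5 µg RNA and 3 µl of diluted ERCC spike-in, 1 h at 30 °C. The submitters' processing notes name HISAT2 2.2.0 and featureCounts 2.0.0 beside Trim Galore, DESeq2 and the R64 build, with no role given. The authors deposited 1 table of normalized signal (density per feature and library), and its group columns are plain means of the library columns. How the library factors were chosen is not given in the sources used here. Each row was resolved into whole reads, a whole length and 1 factor per library: all 81592 positive values came out whole within 0.001 reads, and 0 of 500 rows randomly changed by 3% did. Lengths are the smallest that fit, and 95.8% of SUT lengths are a multiple of 8 plus 1. Reads in the listed features numbered 1310995 to 5689075 a library. Intervals are exact at 95% and cover counting error only, as does the floor of 3 reads over a group.

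For the tests, limma 3.58.1 (R 4.3.3) was fitted to log2(density + 0.002) for 10392 features with a mean of at least 0.002 (rRNA left out), all 8 libraries together, with a variance trend, two-sided, and p-values were adjusted by Benjamini-Hochberg across all of these features, with a threshold of 0.05. Scripts were tested on simulated data. The labels call replicates biological without naming separate cultures, so p-values measure the spread between these libraries. Gene names came from RefSeq R64 by systematic name. Members, lists and alternatives were chosen with earlier results of these data known. SUTs named are the 10 of highest mean, in each comparison the 6 of largest change each way and the 6 of smallest adjusted p among those past the threshold with at least 20 reads, 7 of published work, and 3 on either side of the minimum. SUT103, SUT509, SUT768 and SUT638 beside the last comparisons, SUT184, SUT581 and the neighbouring rows were named after their values were seen. Alternatives covered pseudocounts, filters, scalings, voom on recovered reads, the replicate block, 4 libraries alone and each library left out, and 3 were added after seeing the data.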

Additional observations from a re-analysis of the deposited data

How the results depend on the processing

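The counts of SUTs higher changed with the scaling, the filter, the pseudocount and the libraries fitted. For CHX in upf1, CHX in WT and upf1 in DMSO they were 388, 548 and 233 as reported, 7, 172 and 125 with a common protein-coding median (lower: 3, 3 and 4), 7, 63 and 58 with quantile normalization (lower: 2, 14 and 4), and 6, 81 and 61 with log values centred on protein-coding genes, added after seeing the data (lower: 3, 3 and 2). The filter at 0.01 gave 244 and 314 for CHX in upf1 and in WT, from fewer SUTs tested, and a common total 254 for CHX in upf1. For upf1 in DMSO a pseudocount of 0.01 gave 121 and its 4 libraries alone 0. Fits of 4 libraries alone, also with fewer degrees of freedom, gave 371 for CHX in upf1 and 516 for CHX in WT. Why the count of upf1 in DMSO went to 0 was not tested. For upf1 in CHX, 25 were higher with a pseudocount of 0.01 and 63 with voom. With 1 library left out the counts higher ran from 99 to 418, 384 to 544 and 44 to 181, and those lower from 0 to 3, 0 to 0 and 0 to 1. Replicate numbers are shared between groups. Deviations of same-numbered libraries from their group means correlated at -0.044 to 0.117 between groups, which shows little sign of pairing. The replicate block gave 403, 555 and 235 higher and 0, 1 and 0 lower, and 0 in the other comparisons. The SUT to CUT ratio of upf1 against WT was 0.38 with class medians (exact permutation p = 0.143) and 0.90 to 1.12 without 1 library (p = 0.0571, the smallest for 3 against 4), and that of CHX against DMSO turned to -0.19 with class medians. Named SUTs that turned with a common protein-coding median, quantile normalization or log centring were SUT217 (CHX in upf1 -0.92, -0.76 and -0.82, CHX in WT -0.34, -0.26 and -0.18), SUT477 (CHX in upf1 -0.39, -0.14 and -0.29), SUT307 (CHX in upf1, -0.12 with the median and -0.026 with centring), SUT388 (CHX in upf1, -0.021 with the median) and SUT103 (CHX in WT, -0.037 with the median). The cause of these turns was not tested beyond the shift of the library factors given in the report. Depth limits most the SUTs read 0 to 3 times in WT DMSO.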
